A study of Glycine max with 102 samples.

Results

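The comparison concerns 27 of the 102 soybean leaf libraries of the series, 13 from LG lines and 14 from elite lines, all with high transcript of the clock gene LHY2b. LG lines are breeding lines of diverse ancestry and elite lines are cultivars or advanced lines. Both classes served as parents of the nested association mapping population soyNAM, in which they were crossed to 1 hub line. A library was kept when LHY2b (Glyma.03G261800) stood at 60 FPKM or more (fragments scaled by transcript length and by mapped fragments), which retained 13 of 15 LG libraries and 14 of 18 elite libraries. The members were therefore chosen by a measured value, and the level of LHY2b is given as a description only. Leaves were taken at the V2 stage, when the second trifoliolate leaf is open, from plants 18 days old. The labels give no treatment, mutation or transgene, and each accession contributed 1 library, so that a p-value measures the spread between accessions. The classes rest on the public family numbers of the population, which do not stand in the labels, and Parent is assumed to be the hub line IA3023.

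LHY proteins are MYB repressors of the plant circadian clock whose transcripts peak around dawn and fall through the day. The evening genes GIGANTEA and ELF3, represented in soybean by the maturity loci E2 and J, and the photoperiod genes that act on the florigens of the FT family act downstream of or beside that rhythm. Many leaf transcripts cycle daily, so 2 sets of leaves can differ through the state of the clock as well as through genotype.

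LHY2b separated the kept libraries from the excluded ones by a wide gap. The lowest kept libraries were NAM37 at 151 FPKM and NAM34 at 178 FPKM among LG lines, and NAM22 at 189 FPKM among elite lines. The highest excluded libraries were NAM29 at 53.97 FPKM among LG lines and NAM11 at 49.7 FPKM among elite lines. NAM31 (LG, 40.8 FPKM), NAM06 (elite, 36.4 FPKM), NAM10 (elite, 0.239 FPKM) and Parent (elite, 0.196 FPKM) were also excluded.

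Within the kept libraries the LHY transcripts still stood lower in LG lines, so the groups are matched for the absence of low libraries and not for the level itself. LHY2b ran from 151 through a median of 219 to 285 FPKM in LG lines, and from 189 through 260 to 326 FPKM in elite lines. The groups overlapped, and 12 of 13 LG libraries lay below the elite median. Mean LHY2b was 222 ± 34.2 FPKM across LG lines (SD, n = 13), against 262 ± 43.2 FPKM across elite lines (SD, n = 14). Its near-identical partner LHY2a averaged 98.3 ± 14.3 FPKM across LG lines, against 117 ± 22.8 FPKM across elite lines. LHY1a averaged 401 ± 63.7 FPKM across LG lines, against 454 ± 60.2 FPKM across elite lines, and LHY1b averaged 157 ± 38.9 and 193 ± 58.2 FPKM in LG and elite lines. The LG means were 84.4% of the elite means for LHY2b, 84.4% for LHY2a, 88.4% for LHY1a and 81.2% for LHY1b. The members of each LHY pair can share reads, and their 4 values are not separate evidence.

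**Figure D1:**
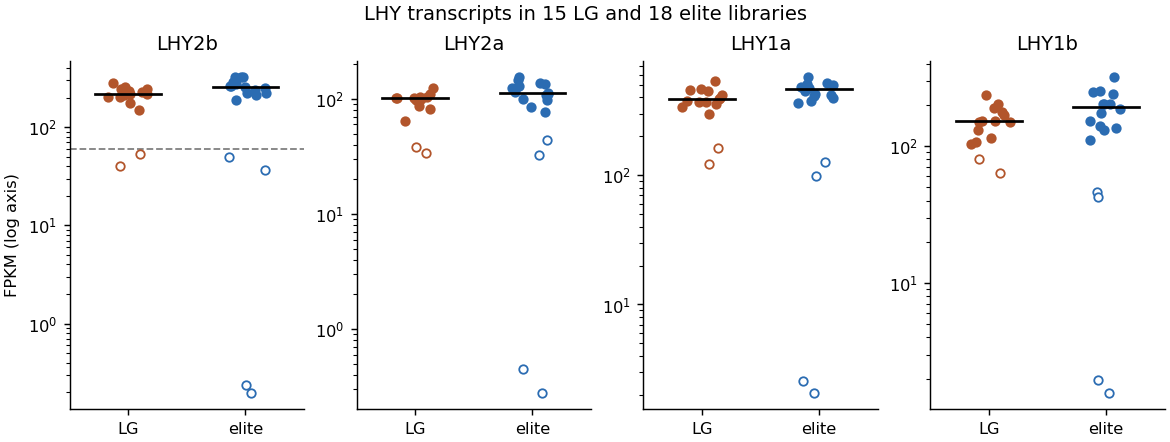
FPKM on a log axis of the 4 LHY genes in LG lines (left of each panel) and elite lines (right), with 1 point per library and a black line at the median of the kept libraries. Filled points are the 13 LG and 14 elite libraries kept, open points are the 2 LG and 4 elite libraries excluded, and the dashed line in the LHY2b panel marks 60 FPKM.

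Leaf genes were abundant in both groups. The Rubisco small subunit gene Glyma.13G046200 averaged 17977 ± 2408 FPKM across LG lines, against 18611 ± 3602 FPKM across elite lines. None of 8 seed storage genes exceeded 3.79 FPKM in any kept library and none of 5 nodule genes exceeded 2.79 FPKM, and none of these 13 passed the filter. Library measures gave no call: 27838 ± 258 genes reached 1 FPKM in LG lines and 27898 ± 269 in elite lines (permutation p = 0.560, adjusted p = 0.839). The share of FPKM held by the 50 highest genes was 22.1% ± 1.06 in LG lines and 21.7% ± 1.38 in elite lines (permutation p = 0.464, adjusted p = 0.839). The relative depth, read from the smallest steps of the values, ran from 0.841 to 1.37 in LG libraries and from 0.877 to 1.37 in elite libraries.

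Across the genome few genes were called between LG and elite lines, and most of their changes were small in size. Of 28300 genes averaging 1 FPKM or more in the 27 libraries, 189 passed an adjusted p of 0.05 (limma on log2(FPKM + 1), 2-sided, Benjamini-Hochberg), which is 0.668% of the genes tested. Of these, 76 genes (0.269%) were higher and 113 genes (0.399%) were lower in LG lines. The smallest adjusted p was 0.00105 in limma. At an unadjusted p under 0.05 there were 4471 genes (15.8%), 2266 of them higher and 2205 lower in LG lines. The median size of the change among the 189 was 0.34 on the log2(FPKM + 1) scale, against 0.08 among all genes tested, and selection by the test fixes part of that gap. A change below 1.5-fold was seen in 166 of the 189, while 1 higher gene and 2 lower genes reached 2-fold. On this scale the change of low genes is understated. No gene had LG and elite values without overlap. The 189 were spread over the chromosomes, at 0.222% to 0.998% of the genes tested on each, with 0 pairs of adjacent IDs and 1 run of 3 called genes within 10 consecutive IDs, on chromosome 7. That run held 2 lower genes and 1 higher gene in LG lines.

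The count changed with the libraries fitted. With all 15 LG and 18 elite libraries, limma called 0 of 29220 genes (0%), with 1712 at an unadjusted p under 0.05. The median residual SD per gene was 0.201 in the 27 libraries and 0.328 in all 33. Leaving out each of the 27 in turn gave 106 to 595 calls. The count moved to 595 without NAM26 (LG) and 520 without NAM22 (elite). It moved to 106 without NAM34, 109 without NAM36 and 118 without NAM39, all LG, and to 117 without NAM04 (elite). LHY2b stood at 285 FPKM in NAM26, the highest LG library, and at 189 FPKM in NAM22, the lowest elite library. It stood at 178 FPKM in NAM34, 202 FPKM in NAM36 and 244 FPKM in NAM39. In NAM04, the highest elite library, it stood at 326 FPKM. The part of LHY2b in these counts was not tested. Without NAM37, the LG library with the lowest LHY2b, the count was 182.

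With LHY2b added to the fit as a covariate, 1 gene of 28300 (0.00353%) passed an adjusted p of 0.05 in limma, and it was higher in LG lines. An unadjusted p under 0.05 was reached by 2671 genes (9.44%) in that fit. The 189 were called on these same libraries, and with the covariate 172 of them had a smaller change, with a median ratio of 0.800 between the 2 estimates. Their median size was 0.27 with the covariate, against 0.34 without. LHY2b and the class are themselves related among these libraries, so a difference that goes with LHY2b and a difference between the classes cannot be told apart in full.

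**Figure D2:**
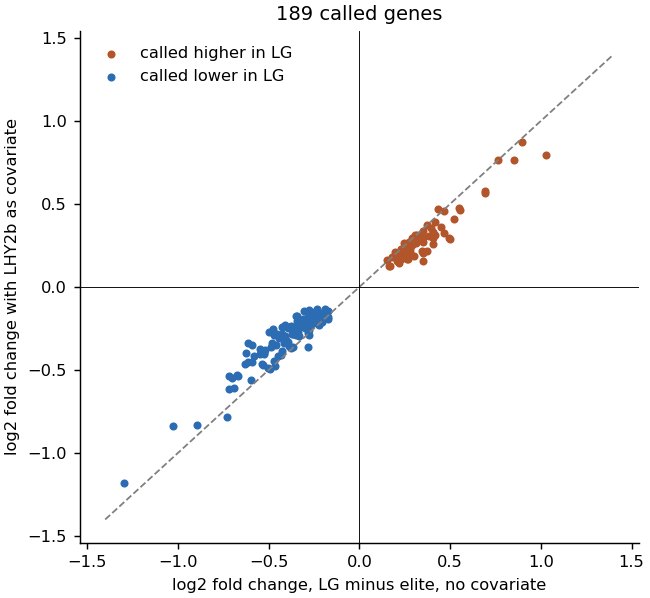
Log2 fold change (LG minus elite) of the 189 called genes without a covariate (horizontal) and with LHY2b as a covariate (vertical), 1 point per gene, with genes higher in LG lines and lower in LG lines in separate colours. Points nearer the horizontal axis than the dashed line of equality have a smaller change with the covariate, as 172 of the 189 do.

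The correlation with LHY2b within each class is given as a description, since LHY2b chose the libraries and differed between the classes. The 113 genes lower in LG lines had a median correlation with LHY2b of 0.456 over the 13 LG libraries and 0.436 over the 14 elite libraries. The correlation was positive in both classes for 84 of them (74.3%), against 34.8% of all genes tested. The 76 genes higher in LG lines had median correlations of -0.33 in LG libraries and -0.21 in elite libraries, and 38 of them (50%) were negative in both, against 26.6% of all genes tested. Every gene is set against the same LHY2b values of the same libraries.

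In the 21 libraries whose LHY2b lay in the range that both classes share, LHY2b averaged 232 ± 24.6 FPKM in 11 LG libraries and 241 ± 27.5 FPKM in 10 elite libraries. There limma called 3 of 28280 genes (0.0106%), all among the 189, with 2 higher and 1 lower in LG lines. The median size of the 189 was 0.30 there. This selection was made on LHY2b after the data were seen and reuses libraries on which the 189 were called, so it is no independent support for them.

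Some principal components of the 27 libraries grouped runs of column numbers, which are family numbers. The second component, with 8.98% of the variance, was low in the 7 LG libraries numbered 32 to 39, from -34.65 to -13.54, and in the elite library NAM22 at -22.28, whereas its neighbour NAM23 lay at the other end, at 20.7. The LG libraries numbered 24 to 30 lay between -7.11 and 19.5. The third component, with 6.44%, was at 18.2 to 36.2 in the elite libraries numbered 02 to 08, and among the others only the LG library NAM37 was as high, at 19.7. The labels give no batch or date, and the part of such groupings in the calls was not tested. NAM37 also stood apart on the first component (12.2% of the variance), at -64.83.

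**Figure D3:**
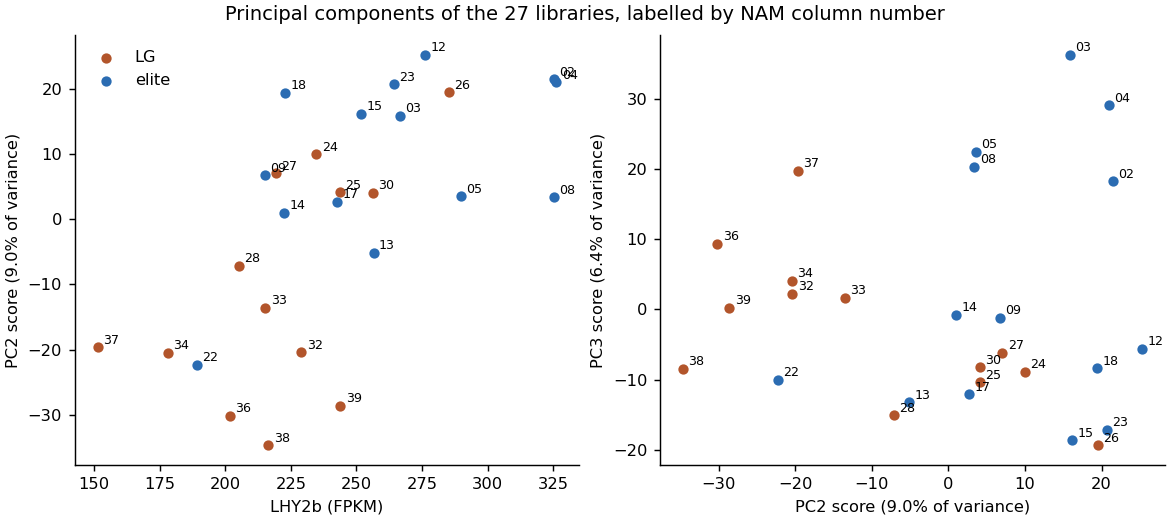
Scores of the 27 libraries, labelled by NAM column number, with LG and elite lines in separate colours. The left panel plots the second component against LHY2b in FPKM and the right panel the third component against the second, where the LG libraries 32 to 39 lie at the low end of the second component beside the elite library 22.

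Gene IDs outside the lists carry no names in the sources used here, and 4 are given, the largest change and the smallest p in each direction. They were picked after values had been seen. They took the place of the 2 largest changes in each direction, of which 0 of 4 stayed called with LHY2b as a covariate, against 1 of the 4 given.

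Glyma.11G098400 had the largest rise. It stood at 1.26 to 12.9 FPKM with a median of 6.60 in LG lines, and at 1.15 to 4.69 FPKM with a median of 2.84 in elite lines. The groups overlapped at the low end. The log2 fold change was 1.03 with SE 0.240 (95% interval 0.53 to 1.52, limma adjusted p = 0.0375). With the covariate it was 0.79 and was no longer called, and 13 of the 27 fits without 1 library also did not call it.

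Glyma.17G134500 had the smallest p of a rise and was the 1 gene called with LHY2b as a covariate. Its values were 12.96, 14.5 and 16.9 FPKM (lowest, median, highest) in LG lines and 10.02, 10.9 and 13.5 FPKM in elite lines. All 13 LG libraries lay above the elite median, and 10 lay above the highest elite library. The log2 fold change was 0.37 with SE 0.050 (95% interval 0.27 to 0.48, limma adjusted p = 0.00105), and 0.38 with the covariate (adjusted p = 0.0128). None of the 27 fits without 1 library lost the call, but 5 of 17 other settings of the processing did. In all 33 libraries the fold change was 0.08 with a limma adjusted p of 0.970. The excluded libraries were far higher than the kept ones, at 27.7 and 22.8 FPKM in LG lines NAM29 and NAM31 and at 22.1 to 63.0 FPKM in the 4 elite lines. Its level was thus higher in every excluded library than in every kept one.

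Glyma.13G126100 had the largest fall. It was listed at 0 in 11 of 13 LG libraries, with NAM37 at 2.58 FPKM and NAM26 at 4.99 FPKM, and at 0 in 2 of 14 elite libraries, NAM05 and NAM09. The other 12 elite libraries reached 1 FPKM, with an elite median of 2.19 FPKM. An exact 0 in these files can be a failed estimate. With means of 0.583 FPKM across LG lines and 2.47 FPKM across elite lines, it passed the filter of 1 FPKM only through the elite lines, so its test carries little weight. The log2 fold change was -1.30 with SE 0.299 (95% interval -1.91 to -0.69, limma adjusted p = 0.0342), and 16 of the 27 fits without 1 library did not call it. It was -1.18 with the covariate and no longer called.

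Glyma.03G247100 had the smallest p of a fall. It ran from 25.5 through 34.03 to 48.3 FPKM in LG lines and from 38.9 through 55.03 to 73.02 FPKM in elite lines. All 13 LG libraries lay below the elite median and 8 lay below the lowest elite library. The log2 fold change was -0.61 with SE 0.096 (95% interval -0.81 to -0.42, limma adjusted p = 0.00620), and no fit without 1 library lost the call. With the covariate it was -0.45 with a limma adjusted p of 0.126. Of 17 other settings of the processing, 7 did not call the gene. Among the excluded libraries NAM10 (elite) stood at 42.4 FPKM. The other excluded libraries ran from 6.28 FPKM (NAM06, elite) to 17.4 FPKM (NAM29, LG), below every kept library.

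Of the genes with known names, 95 beside the LHY genes were followed and 53 passed the filter. None of the 53 was called, against 0.668% of all genes tested, and 2 higher and 5 lower genes had an unadjusted p under 0.05, against 15.8% of all genes tested. Their median log2 fold change was 0.04, against -0.00 over all genes tested.

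The flowering and clock list had 14 of 24 genes past the filter and 0 called, against 0.668% of all genes tested. At that share a list of this size is too short for the count to say anything about it. It had a median of -0.02, and 0.05 with LHY2b as a covariate. E3, a phytochrome A photoreceptor gene, averaged 3.37 ± 0.385 FPKM across LG lines, against 2.87 ± 0.502 FPKM across elite lines, with a log2 fold change of 0.18 (95% interval 0.05 to 0.32, limma adjusted p = 0.167). E4, the other phytochrome A gene of the list, averaged 40.02 ± 4.20 FPKM across LG lines, against 36.9 ± 4.43 FPKM across elite lines. E2, the GIGANTEA homologue, averaged 36.05 ± 7.64 FPKM across LG lines, against 36.1 ± 5.81 FPKM across elite lines, and its interval was -0.25 to 0.20. With LHY2b as a covariate the estimates of these 3 genes were higher, at 0.23 for E3, 0.20 for E4 (95% interval 0.08 to 0.33, unadjusted limma p = 0.00283) and 0.17 for E2, and none was called. J, the ELF3 homologue, averaged 6.08 ± 0.824 FPKM across LG lines, against 5.37 ± 0.999 FPKM across elite lines. Its log2 fold change was 0.16 (95% interval -0.002 to 0.32, limma adjusted p = 0.323), and it turned to -0.19 with all 33 libraries.

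Of the CONSTANS-like genes, which act between the clock and florigen in Arabidopsis, COL1a and COL1b had lower means in LG lines. Their estimates were near 0 once LHY2b was in the fit. COL2a and COL2b were under the filter and were not tested. COL1a averaged 105.3 ± 16.5 FPKM across LG lines, against 124 ± 22.8 FPKM across elite lines, a log2 fold change of -0.22 (limma adjusted p = 0.251) that was -0.05 with the covariate. COL1b averaged 160 ± 24.005 FPKM across LG lines, against 182 ± 29.4 FPKM across elite lines, -0.19 (limma adjusted p = 0.270) and -0.05 with the covariate. With all 33 libraries both turned positive, at 0.28 for COL1a and 0.45 for COL1b. PRR3b, a pseudo-response regulator of the clock, averaged 53.5 ± 7.46 FPKM across LG lines, against 62.1 ± 15.3 FPKM across elite lines, -0.19 and 0.05 with the covariate. Dt2, a MADS-box gene of stem growth habit, averaged 2.26 ± 0.958 FPKM across LG lines, against 3.09 ± 0.889 FPKM across elite lines, with a log2 fold change of -0.35 (95% interval -0.62 to -0.07, limma adjusted p = 0.200). With the covariate the estimate of Dt2 was -0.20 (95% interval -0.50 to 0.09). SOC1a averaged 10.6 ± 3.00 FPKM across LG lines, against 13.6 ± 4.02 FPKM across elite lines, -0.32 (limma adjusted p = 0.312) and -0.13 with the covariate. The florigen gene FT2a averaged 7.70 ± 3.08 FPKM across LG lines, against 6.62 ± 2.93 FPKM across elite lines (interval -0.32 to 0.67, and an estimate of 0.18 that was 0.47 with the covariate), and FT5a 1.99 ± 1.46 and 2.95 ± 1.99 FPKM in LG and elite lines (interval -0.98 to 0.22). These intervals do not show that the classes are alike.

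**Figure D4:**
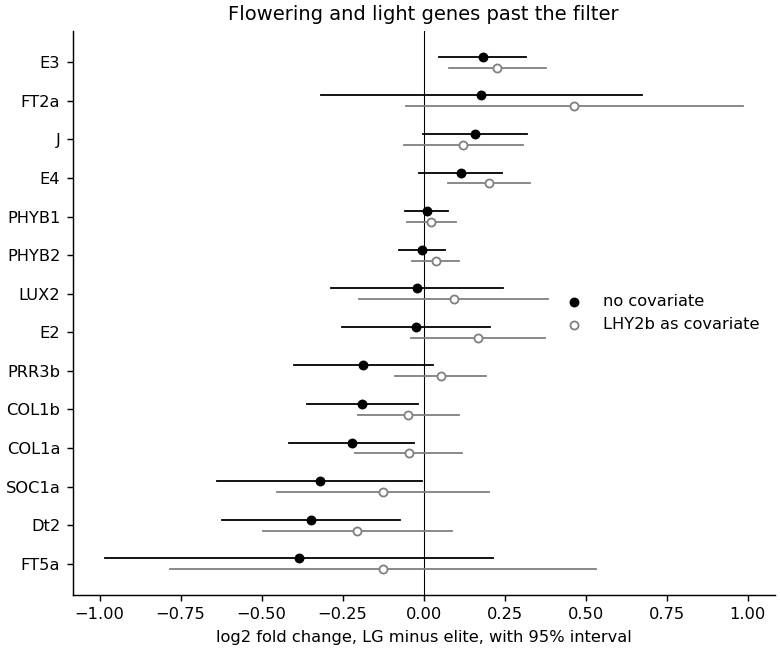
Log2 fold change (LG minus elite) with its 95% interval for the 14 flowering and light genes that passed the filter, without a covariate (filled) and with LHY2b as a covariate (open), ordered by the first estimate. With the covariate COL1a, COL1b, PRR3b, Dt2, SOC1a, FT5a and J lie nearer 0, while E3, E4, FT2a and PHYB1 lie farther above 0. The estimates of E2, LUX2, PHYB2 and PRR3b change sign, that of E2 from -0.02 to 0.17.

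The rhg1 locus, whose repeat carries resistance to soybean cyst nematode, divided the libraries sharply. The alpha-SNAP gene of the repeat was at 216 FPKM in NAM27 and at 22.4 to 32.998 FPKM in the other 12 LG lines. In elite lines it was at 214 to 273 FPKM in 5 of 14 libraries (NAM03, NAM05, NAM12, NAM13 and NAM15) and at 18.9 to 30.5 FPKM in the other 9. The transporter gene and the WI12 gene of the same repeat divided the same 6 libraries from the rest, with no value between 6.14 and 60.7 FPKM for the transporter and none between 15.4 and 89.8 FPKM for WI12. High levels of the 3 genes thus appeared in 1 of 13 LG lines and 5 of 14 elite lines. The log2 fold changes were -0.78 for alpha-SNAP (95% interval -1.77 to 0.20), -0.98 for the transporter and -1.03 for WI12, with limma adjusted p of 0.444, 0.405 and 0.311. The 3 genes lie on the same repeat and so are not independent, and the copies of the repeat share reads.

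A further pair of genes was high or low by library. IFS1, an isoflavone synthase gene, was at 8.16 FPKM or less in 3 of 13 LG lines and 5 of 14 elite lines, and at 20.3 FPKM or more in the other 10 LG lines and 9 elite lines. IFS1 had a log2 fold change of 0.53 (95% interval -0.34 to 1.39, limma adjusted p = 0.574). The Rubisco small subunit gene Glyma.19G046800 was listed at 0 in 10 of 13 LG lines and 12 of 14 elite lines. It stood at 4872, 5357 and 5610 FPKM in NAM37, NAM28 and NAM38 (LG) and at 3491 and 3714 FPKM in NAM15 and NAM09 (elite). Near-identical family members can share reads, and the zeros can be failed estimates.

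**Figure D5:**
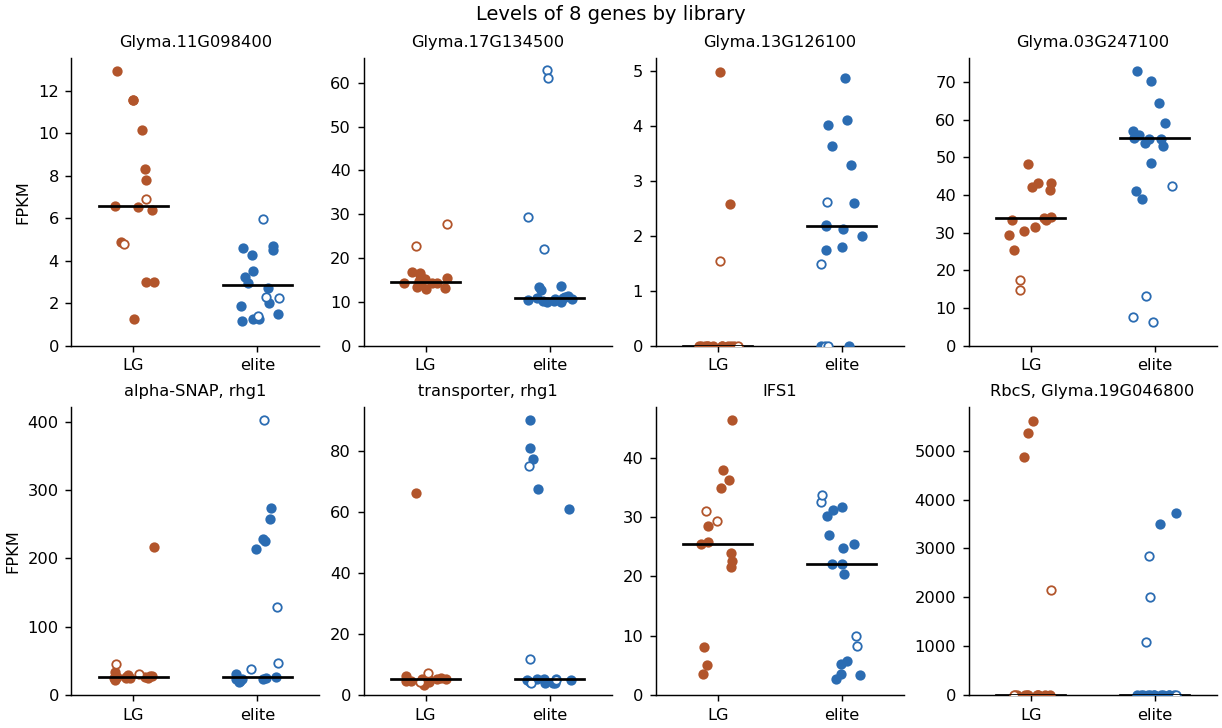
FPKM by library of 8 genes in LG lines (left of each panel) and elite lines (right), 1 point per library, filled where kept and open where excluded for low LHY2b, with a line at the median of the kept libraries. Glyma.17G134500 lies higher in LG lines among filled points, while its open points lie above both groups.

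Other genes of the nematode list were closer between the classes. SHMT08, the serine hydroxymethyltransferase gene of the Rhg4 locus, averaged 126 ± 13.3 FPKM across LG lines, against 117 ± 10.8 FPKM across elite lines, with a log2 fold change of 0.10 (95% interval -0.02 to 0.22, limma adjusted p = 0.396). NSF07, an NSF gene whose protein works with alpha-SNAP in vesicle fusion, averaged 6.28 ± 0.697 FPKM across LG lines, against 5.74 ± 1.49 FPKM across elite lines (limma adjusted p = 0.464). The list had 9 of 10 genes tested, 0 called, with a median of -0.11, and -0.06 with LHY2b as a covariate.

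Among pigment and shape genes, single libraries set the highest values. P1, a gene of the glabrous locus, reached 106 FPKM in NAM37 (LG), with a median of 8.19 FPKM in LG lines, against a highest value of 28.2 and a median of 10.05 FPKM in elite lines. W3, a dihydroflavonol reductase gene of flower colour, reached 8.78 FPKM in NAM25 (LG) and 17.3 FPKM in NAM18 (elite), with medians near 0.03 FPKM in both classes. D1, a stay-green gene, averaged 5.35 ± 0.850 FPKM across LG lines, against 4.91 ± 0.731 FPKM across elite lines (limma adjusted p = 0.506).

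POWR1, a gene tied to seed protein and seed size, was under the filter and was not tested. It ran from 0.203 through 0.685 to 0.783 FPKM in LG lines and from 0.381 through 0.842 to 1.17 FPKM in elite lines, and all 13 LG libraries lay below the elite median. Values this low rest on few reads.

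The Rubisco activase genes, whose protein keeps Rubisco active, gave no call. Their 4 estimates were positive, but that of RCA11, the activase gene on chromosome 11, was 0.08 and turned to -0.04 under quantile normalization, and that of RCA14 was 0.04 and turned to -0.03 with a limit of 40 FPKM for LHY2b. The gene Glyma.02G249600 averaged 1071 ± 110 FPKM across LG lines, against 982 ± 132 FPKM across elite lines, with a log2 fold change of 0.13 (95% interval -0.01 to 0.27, limma adjusted p = 0.371) and 0.18 with the covariate.

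The remaining lists held no called gene. The pigment and shape list had 6 of 11 genes tested with a median of 0.06, the flavonoid list 6 of 11 with 0.03, the Rubisco and activase list 6 of 6 with 0.09, and the desaturase list 3 of 5 with 0.04. Leaves are mixtures of cell types, so fewer cells of a type and less RNA per cell cannot be told apart in any of these values.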

How the data were processed

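FPKM values per gene for 102 libraries were used as deposited by the authors. The submitters' processing notes name Trimmomatic 0.32, STAR 2.4.1c and Cufflinks 2.2.1 as the tools behind them. The genome build, annotation, filters and use of strand are not given in the sources used here. 0 columns were left unused, and 0 of 56044 gene IDs matched the reference table of names.

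The 27 libraries alone were fitted on the log2(FPKM + 1) scale, using limma 3.58.1 under R 4.3.3 with a mean trend. Genes averaging 1 FPKM or more there were tested. Library measures used 2-sided permutation tests with 100000 resamples. The method was tested on simulated data. Read depth is not given by the values beyond relative steps, so no counting interval is given. Gene lists come from published locus assignments.

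The members, lists and tests were chosen with earlier results of these data known. The rule for named genes took all list genes, the 12 largest changes and the 5 smallest p-values in each direction, and printed at most 2 unnamed IDs a direction without saying which. The 2 largest changes in each direction were picked first. After values had been seen, these were replaced by the largest change and the smallest p in each direction.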

Additional observations from a re-analysis of the deposited data

How the results depend on the processing

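The number of called genes, 189, stayed within 1.5 times under pseudocounts of 0.1 and 0.01 FPKM, no filter and 2 other filters. It also did so under median-of-ratios scaling, quantile normalization and robust moderation. A limit of 100 FPKM for LHY2b keeps the same 27 libraries, so its count of 189 was fixed in advance. It was 0 with all 33 libraries, 0 with these and LHY2b as a covariate, 11 with a limit of 40 FPKM, 1 with the covariate in the 27 libraries, 68 in a fit of 4 classes, 681 with the first residual component as a covariate and 0 by a rank-sum test (4309 at an unadjusted p under 0.05). It was 3 in the shared LHY2b range, a setting chosen after the data were seen. The rank-sum p came from a normal approximation on ranks. With these numbers of libraries it can become only so small, whatever the size of a change. No gene had LG and elite values without overlap, so none reached that limit. The limma calls thus did not hold under the rank-sum test, and the part of the limit in its 0 was not tested. Leaving out 1 library gave 106 to 595. The cause was not tested. No list gene was called under any of these, and 27 of the 53 uncalled list genes changed sign under at least 1. No paired analysis was possible because the columns carry no replicate numbers shared between the classes and each accession has 1 library.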

Other observations

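Among the kept libraries, transcripts of vegetative storage proteins, which hold nitrogen in leaves, ranged more widely in LG lines than in elite lines. VspA ran from 365 through 1298 to 5585 FPKM in LG lines and from 724 through 1211 to 2264 FPKM in elite lines. VspB reached 2270 FPKM in NAM38 (LG), against a highest value of 398 FPKM in elite lines. Of the kept LG libraries, only NAM33, NAM37 and NAM38 lay above the highest kept elite value of either gene. In elite libraries excluded for low LHY2b, VspA ran from 41.8 FPKM (NAM11) to 3823 FPKM (NAM10). In the same libraries VspB ran from 2.13 FPKM (NAM11) to 141 FPKM (NAM10), below the highest kept elite value. For neither gene does the range of the kept elite libraries thus cover all elite libraries. The spread of genes in general was not larger in LG lines: the SD was larger in LG lines for 46.5% of the 28300 genes tested, and for 38.9% without NAM37.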
